A study of Mus musculus with 8 samples.

Results

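Long intergenic noncoding RNAs (lincRNAs) expressed in the mouse kidney were followed 72 h after cisplatin. The set was chosen from measured values, as genes that the deposited count table annotates as lincRNA, that do not lie on chromosome Y, and that had at least 20 raw counts in at least 4 of the 8 libraries. It held 252 of the 35880 genes in rows that could be used, and 3349 lincRNAs not on chromosome Y were in those rows. Male C57/BL6J mice of wild-type genotype received saline (control, n = 4, libraries 1, 2, 3 and 5) or a single cisplatin dose of 23 mg/kg (n = 4, libraries 1, 3, 4 and 6) by intraperitoneal injection, and their ages are not given in the sources used here. Each library was polyadenylated RNA of whole kidney from one mouse. Total counts in the usable rows were 13539665, 14690939, 16090350 and 16201443 in the controls and 16701599, 14568233, 11860451 and 10953338 in the cisplatin-treated kidneys.

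LincRNAs are long transcripts with no evident protein product, made from genes that lie between protein-coding genes. Many stay in the nucleus: Malat1 gathers at speckles rich in splicing factors, Neat1 is the scaffold of paraspeckles, and several others act at the chromosome next to the site where they are made. Some are spliced carriers whose introns or exons hold small nucleolar RNAs (snoRNAs, guides for the chemical modification of ribosomal RNA) or microRNAs. Cisplatin crosslinks DNA and injures mainly the proximal tubule, and DNA damage activates p53, which drives the cell-cycle inhibitor Cdkn1a and its neighbouring lincRNA Trp53cor1.

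The libraries differed along a second axis besides treatment. In a principal component analysis of the genes tested, the first component (73.55% of the variance) separated cisplatin from control, and the second (15.96%) separated control 5, cisplatin 4 and cisplatin 6 from the other 5 libraries. These 3 libraries are called the second library set below and the other 5 the first library set. The sets were defined from the data, and no label gives a batch. The study's methods describe male mice, yet the Y-linked genes Kdm5d (2 and 0 raw counts) and Eif2s3y (3 and 0) were nearly without counts in cisplatin 1 and cisplatin 3, against 274 to 576 and 541 to 1333 in the other 6 libraries. Within the cisplatin group the split between library sets and the split by Y-linked counts fall on the same libraries, so they cannot be told apart. The difference between cisplatin and control was therefore also taken within each set.

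The labelled tissue was checked on marker genes. All 8 proximal tubule markers were detected, among them the phosphate transporter Slc34a1 and the endocytic receptor Lrp2, and all 8 fell, with a median log2 fold change of -4.24. Their summed level was 28820, 25793, 28642 and 33396 counts per 1e6 counts (CPM) in the controls and 1106, 1018, 2352 and 2419 CPM in the cisplatin-treated kidneys, and the most abundant was Slc34a1 in the controls, the water channel gene Aqp1 in cisplatin 1 and the fatty acid transport gene Slc27a2 in cisplatin 3, 4 and 6. The injury gene Lcn2 was at 3.28 ± 1.17 CPM (SD, n = 4) in controls and 1981 ± 572 CPM in treated kidneys, and Havcr1 at 2.75 ± 1.99 and 852 ± 192 CPM. Of the other markers tested, 2 of 3 for neutrophils (S100a8 and S100a9) and 1 of 1 for B cells (Cd79a) rose, the stromal collagen gene Col1a1 rose, the red cell gene Alas2 fell, and no podocyte or endothelial marker was called by edgeR or DESeq2 (Kdr alone had an unadjusted p under 0.05 in edgeR). Summed neutrophil markers went from 3.67 to 5.43 CPM in the controls to 10.01 to 18.6 CPM after cisplatin, B cell Cd79a from 0.443 to 1.52 up to 2.42 to 10.3, and Col1a1 from 14.4 to 65.3 up to 87.6 to 510. Among markers of other tubule segments, Umod and Slc12a3 fell, and in the collecting duct Aqp2 rose, Slc4a1 fell and Aqp3 was not called. The thick ascending limb gene Slc12a1 (-1.78, adjusted p = 0.0602, edgeR) and the red cell gene Hba-a1 (-3.33, adjusted p = 0.0621, edgeR) were called by DESeq2 only. Both podocyte genes and both endothelial genes were detected in every library. Macrophage and T cell markers lay in rows not used here. The part of these shifts in the lincRNA results was not tested, and in whole tissue fewer cells of a type and less RNA per cell cannot be told apart.

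Most of the lincRNAs were of low abundance. Their mean level was under 5 CPM in 194 of 252, at least 10 CPM in 23 and at least 100 CPM in 4, and ran from 0.885 to 6182 CPM. Per kilobase of transcript, the median level was 1.78 CPM, against 7.05 CPM for the protein-coding genes tested. At least 20 counts were found in all 8 libraries for 85, in the 4 cisplatin libraries and no control for 42, and in the 4 controls and no cisplatin library for 17. Just inside the threshold were 2210406O10Rik (7, 17, 20 and 20 counts in controls and 23, 11, 38 and 31 after cisplatin) and Gm26641 (17, 22, 31 and 33, then 20, 10, 9 and 8). Just outside it were A530013C23Rik (5, 1, 1 and 5, then 26, 19, 93 and 78) and AC158605.1 (14, 14, 28 and 38, then 19, 31, 17 and 15).

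Cisplatin moved many lincRNAs in both directions. A gene was called when the adjusted p of edgeR's quasi-likelihood test, over all 9141 genes tested, was under 0.05 and the log2 fold change was at least 1 in size. By this rule 74 lincRNAs (29.4%) rose and 47 (18.7%) fell, and 131 were not called. Of all genes tested, 19.2% rose and 15.7% fell, together 34.9%, and 34% of protein-coding genes were called. The 42 lincRNAs that reached the threshold through cisplatin libraries alone were all called up and the 17 that reached it through controls alone were all called down, and for those the choice of members left little other outcome. Of the remaining 193, 32 rose and 30 fell, together 32.1%. Put through the same rule, and without those that met it through 1 group alone, 29.7% of 7981 genes tested and 29.9% of 6882 protein-coding genes tested were called. The median log2 fold change was 2.01 among the 74 that rose, 0.20 among those not called and -2.45 among the 47 that fell. It was at least 3 in size for 20 of those that rose and 17 of those that fell. The 4 cisplatin libraries lay above all 4 controls for 75 lincRNAs (29.8%, against 23.7% of all genes) and below them for 53 (21%, against 22.5%). For the 42 and the 17 that reached the threshold through 1 group alone, such a separation goes with the choice of members. These shares were not taken without those lincRNAs, so they show no difference from all genes. When counts were scaled by total library size in place of TMM, the median of all genes shifted upward by 0.567 (log2), and 117 lincRNAs rose and 35 fell. The p-values measure the spread between these 8 mice only.

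Summed over all 252, lincRNAs took 0.855%, 0.990%, 1.03% and 0.361% of the counts in controls 1, 2, 3 and 5, and 2.27%, 1.998%, 1.37% and 1.53% in cisplatin 1, 3, 4 and 6. Malat1, Gm26917 and Neat1 made up most of this. The other 249 lincRNAs together took 0.110%, 0.112%, 0.124% and 0.104% in the controls and 0.173%, 0.148%, 0.173% and 0.182% after cisplatin, with no overlap between the groups as shares of raw counts. With TMM the groups overlapped, at 1324, 1311, 1508 and 1328 CPM in the controls and 1317, 1184, 1503 and 1584 CPM after cisplatin. These sums hold 42 lincRNAs that reached the threshold of counts through cisplatin libraries alone and 17 that did so through controls alone. Which RNA led the total differed by library: Malat1 in 5 libraries, Neat1 in control 5, and Gm26917 in cisplatin 4 and 6.

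**Figure D1:**
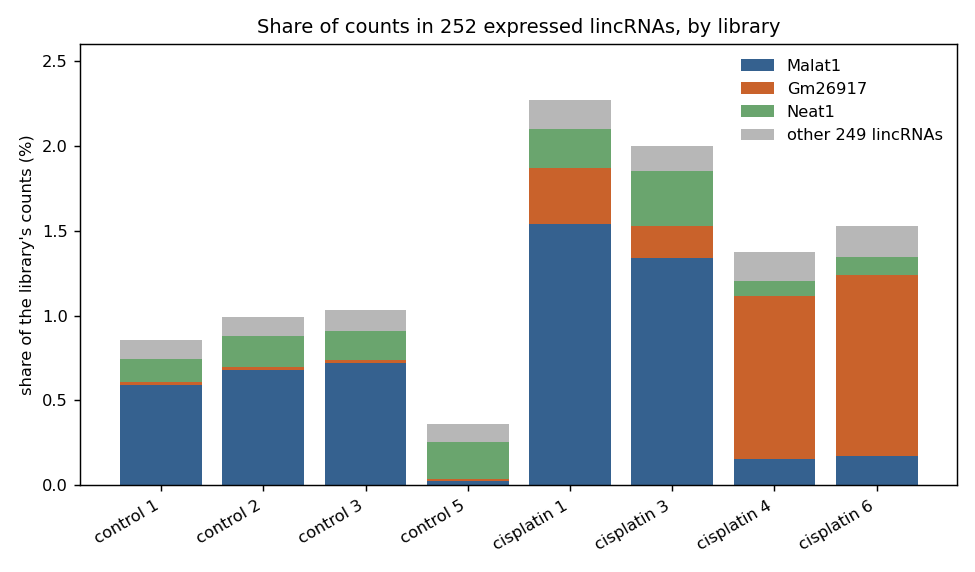
Share of each library's counts (percent, vertical axis) taken by Malat1, Gm26917, Neat1 and the other 249 lincRNAs (stacked colours), for the 4 control and 4 cisplatin libraries (horizontal axis). Malat1 is the tallest block except in control 5, cisplatin 4 and cisplatin 6, while the block of the other lincRNAs keeps nearly the same height within each group.

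Malat1 (ENSMUSG00000092341, chr19:5795690-5802672 in GRCm38, minus strand, 1 exon) was the most abundant lincRNA and the one whose level depended most on the library. It stood at 7122, 7986 and 8768 CPM in controls 1, 2 and 3 but at 330.1 CPM in control 5. After cisplatin it stood at 11695 and 10739 CPM in libraries 1 and 3 and at 1329 and 1488 CPM in libraries 4 and 6. The groups overlapped, and the log2 fold change over all 8 libraries was 0.06 (SE 0.936, adjusted p = 0.964, edgeR). Within each library set the cisplatin libraries were the higher ones, by 0.50 on the log2 scale in the first set and by 2.09 in the second, where there is 1 control. With the library set as a covariate, the log2 fold change was 1.03 (SE 0.313, adjusted p = 0.0176, edgeR). Without cisplatin 1 and 3, the 2 libraries with almost no Y-linked counts, it was -2.11 (SE 1.04, adjusted p = 0.119, edgeR). No direction for Malat1 held over these fits.

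Neat1 (ENSMUSG00000092274, chr19:5824708-5845478, minus strand), which is 22036 bases from Malat1, did not share this pattern. Its control levels were 1620, 2136, 2124 and 2824 CPM, with control 5 the highest. Its cisplatin levels were 1705 and 2593 CPM in libraries 1 and 3 and 757 and 950 CPM in libraries 4 and 6. Cisplatin 4 and 6 thus lay below every control, whereas 1 and 3 lay among them. The log2 fold change was -0.54 (SE 0.375, adjusted p = 0.263, edgeR), with a difference of 0.11 within the first set and -1.74 within the second. Without cisplatin 1 and 3 it was -1.34 (SE 0.24, adjusted p = 0.00219, edgeR), and in the first set alone it was 0.08.

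Gm26917 (ENSMUSG00000097971, chr17:39843013-39846341, plus strand, 1 exon) had the largest gain in counts. It went from 190, 164, 214 and 122 CPM in the controls to 2524, 1487, 8348 and 9257 CPM after cisplatin, in libraries 1, 3, 4 and 6. Every cisplatin library lay above every control, and libraries 4 and 6 lay above 1 and 3. The log2 fold change was 4.97 (SE 0.62, adjusted p = 0.000168, edgeR), with 3.36 within the first set and 6.17 within the second. The gene ends 12 bases from the ribosomal RNA gene CT010467.1, which read 1163, 379, 749 and 181 CPM in the controls and 702, 1099, 1204 and 1153 CPM after cisplatin and was not called (0.75, SE 0.48, adjusted p = 0.222, edgeR). Ribosomal RNA genes are repeated in the genome, so the assignment of reads at this site is uncertain. The mitochondrial ribosomal RNA mt-Rnr2 was at 7690, 9310, 11283 and 1131 CPM in the controls and 9120, 6212, 4819 and 7639 CPM after cisplatin. Control 5 was the lowest library for Malat1, for CT010467.1 and for mt-Rnr2; the part of this in the lincRNA results was not tested.

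Other nuclear RNAs did not all follow Malat1. Kcnq1ot1, an imprinted antisense RNA outside the lincRNA class, followed Malat1, at 76.8, 96.0, 92.6 and 5.11 CPM in the controls and 101, 78.7, 12.9 and 16.7 CPM after cisplatin. Firre, which tethers chromosomal regions in the nucleus, was at 137, 145, 183 and 180 CPM in the controls and 176, 254, 193 and 139 CPM after cisplatin, and Peg13, an imprinted RNA, at 70.0, 76.0, 71.7 and 49.7 and then 55.5, 65.2, 39.7 and 57.6 CPM. Neither of these differed between library sets by over 2-fold. Of the 15 nuclear RNAs listed, 7 were tested, 5 of them lincRNAs of the set, and none was called by edgeR or DESeq2 (1, Jpx, had an unadjusted p under 0.05 in edgeR). Of all genes tested 34.9% were called by edgeR. The median log2 fold change of the 7 was 0.06, against 0.08 for all genes tested. Of the 9 imprinted noncoding RNAs listed, 3 were tested (Meg3, Kcnq1ot1 and Peg13), and of the 14 noncoding RNAs studied in kidney injury 4 were tested (Malat1, Neat1, Meg3 and Pvt1). In neither list was a gene called by edgeR or DESeq2 or at an unadjusted p under 0.05 in edgeR (0 genes each). With 3 and 4 genes tested, these lists are too short to set against the 34.9% of all genes called. The other listed genes were mostly in rows not used here.

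Meg3 (chr12:109541001-109571726, plus strand), an imprinted RNA expressed from the maternal chromosome, was high in 2 libraries only. Its level was 2.04, 1.83, 1.59 and 1.81 CPM in the controls, 5.69 and 5.55 CPM in cisplatin 1 and 3, and 1.46 and 1.74 CPM in cisplatin 4 and 6. Cisplatin 4 and 6 lay at the control level. The log2 fold change of 1.003 (SE 0.473) had an adjusted p of 0.105 in edgeR. Meg3 was called up with the library set as a covariate (1.05, adjusted p = 0.0252, edgeR) and in the first set alone (1.57, adjusted p = 0.00133, edgeR). It was also called up with a replicate block, which pairs the samples of the same number (1.63, adjusted p = 0.00215, edgeR). Only numbers 1 and 3 occur in both groups, so the difference under the replicate block rests on those libraries, all of the first set. Without cisplatin 1 and 3 Meg3 was at -0.17 (adjusted p = 0.661, edgeR). Jpx (chrX:103493558-103506425, plus strand), an activator of Xist, was at 3.45, 5.42, 3.72 and 3.77 CPM in the controls and 2.64, 2.69, 1.83 and 2.46 CPM after cisplatin. All 4 cisplatin libraries were below the controls, but the log2 fold change of -0.76 (SE 0.274, adjusted p = 0.0423, edgeR) was under the size required for a call. Pvt1 (chr15:62037986-62378096, plus strand), the neighbour of the oncogene Myc, was at 4.43, 5.50, 4.02 and 4.01 CPM in the controls and 7.78, 8.08, 4.69 and 5.95 CPM after cisplatin. Its groups overlapped in 1 library on each side, and the log2 fold change of 0.56 (SE 0.268) had an adjusted p of 0.108 in edgeR.

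Among RNAs linked to p53, Trp53cor1 (lincRNA-p21, ENSMUSG00000085912, chr17:29057474-29078961, minus strand) rose. It had 3, 1, 2 and 1 counts in the controls and 87, 102, 49 and 45 counts after cisplatin, or 3.96, 5.61, 3.59 and 3.57 CPM. All controls were at or under 3 counts, so the change was at least 15.7-fold. It is in the set through its cisplatin libraries alone. The difference in edgeR was significant (adjusted p = 2.63e-05) and of nearly the same size in both library sets, 2.98 and 2.82 on the log2(CPM + 0.5) scale. Its nearest coding gene, Cdkn1a, lies 12018 bases away on the other strand and went from 17.3, 11.6, 10.996 and 14.8 CPM to 1249, 1573, 2298 and 2535 CPM (log2 fold change 7.13, SE 0.341, adjusted p = 1.12e-06, edgeR). Trp53cor1 was highest in cisplatin 3, whereas Cdkn1a was higher in cisplatin 4 and 6 than in 1 and 3. Of the 4 p53-linked RNAs listed, 3 were tested, Trp53cor1 rose and neither Neat1 nor Pvt1 was called, where 19.2% of all genes tested rose.

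Of the 5 lincRNAs that carry a snoRNA or a Cajal body RNA (scaRNA), 3 rose and none fell, where 19.2% of all genes tested rose and 15.7% fell. Of the 3, Snhg10 is in the set through its cisplatin libraries alone, with 14, 17, 11 and 12 counts in the controls. Snhg6 (chr1:9941959-9944118, minus strand), which holds Snord87, was at 5.49, 4.95, 4.93 and 9.44 CPM in the controls and 21.1, 15.0, 37.3 and 45.4 CPM after cisplatin. No control reached a cisplatin library, and the log2 fold change was 2.25 (SE 0.384, adjusted p = 0.00104, edgeR). Snhg10 (chr12:105030617-105032279, minus strand), which holds Scarna13, went from 1.24, 1.36, 0.834 and 0.944 CPM to 2.37, 2.75, 3.73 and 7.77 CPM (1.91, SE 0.437, adjusted p = 0.00534, edgeR), and cisplatin 6 was well above the other 3. The host of Snord93, 2700038G22Rik (chr5:23850597-23855038, plus strand), went from 2.83, 2.15, 2.73 and 1.34 CPM to 11.96, 10.2, 9.96 and 12.5 CPM, a log2 fold change of 2.30 (SE 0.287, adjusted p = 0.000169, edgeR). Its cisplatin libraries were close to one another across both library sets. Snhg12 (chr4:132308678-132311024, plus strand), host of 4 different snoRNAs, was at 13.7, 12.6, 15.5 and 19.2 CPM and then at 15.9, 14.5, 30.2 and 41.9 CPM. Only cisplatin 4 and 6 exceeded the controls, and the log2 fold change of 0.74 (SE 0.34) had an adjusted p of 0.0963 in edgeR. Snhg18 (chr15:32240565-32244662, minus strand), host of Snord123, was lower after cisplatin in every library, at 46.5, 49.6, 44.0 and 47.7 CPM in controls and 32.1, 28.9, 24.7 and 24.8 CPM after cisplatin, but its log2 fold change of -0.77 (SE 0.147, adjusted p = 0.00207, edgeR) was under the size required. Of the 20 snoRNA host genes listed, whatever their annotated class, 8 were tested: Snhg6, Snhg10, Snhg15 (2.79, SE 0.55) and Snhg17 (1.06, SE 0.274) rose, Snhg11 fell (-1.29, SE 0.317), and 3 were not called. Their median was 1.35, against 0.08 for all genes tested. The summed level of the list differed by library set after cisplatin, while control 5 lay among the other controls. The sum was 350, 403, 381 and 393 CPM in the controls and 195, 206, 433 and 424 CPM after cisplatin, with Snhg11 the most abundant. Snhg6, Snhg8, Snhg12, Snhg15 and Snhg17 were higher in the second set in both groups, and Snhg10, Snhg11 and Snhg18 were not. Snhg8, at 1.65 (SE 0.683) with an adjusted p of 0.0707 in edgeR, was also called by DESeq2.

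MicroRNA carriers moved in both directions. Small RNAs themselves were not measured in these libraries. For each microRNA carried by the called hosts, only a single one of its mature sequences is shown, to identify it. The sequences are from RefSeq (GRCm38.p6), with the seed (bases 2 to 8) in capitals, and each of the 6 shown has its own seed.
mmu-miR-155-5p: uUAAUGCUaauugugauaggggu
mmu-miR-191-5p: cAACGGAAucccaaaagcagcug
mmu-miR-425-5p: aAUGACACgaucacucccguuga
mmu-miR-9-5p: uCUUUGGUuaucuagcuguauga
mmu-miR-3069-3p: uUGGACACuaaguacugccaca
mmu-miR-101a-3p: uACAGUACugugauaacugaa

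The precursor of miR-155, a microRNA of activated immune cells, is Mir155hg (chr16:84703167-84715245, plus strand). It was at 1.51, 1.44, 0.986 and 0.315 CPM in the controls and at 5.37, 6.38, 5.64 and 9.67 CPM after cisplatin. No library of one group reached the other, and the log2 fold change was 2.67 (SE 0.444, adjusted p = 0.000912, edgeR). With 17, 18, 13 and 4 counts in the controls, Mir155hg is in the set through its cisplatin libraries alone. The carrier of miR-191 and miR-425, 4833445I07Rik (chr9:108567533-108569174, plus strand), went from 1.42, 1.75, 0.910 and 1.97 CPM to 3.09, 1.54, 9.15 and 6.90 CPM (1.76, SE 0.543, adjusted p = 0.0225, edgeR), and cisplatin 3 lay among the controls. C130071C03Rik (chr13:83721381-83884194, plus strand), which holds the gene of miR-9, went from 1.15, 1.83, 1.21 and 1.10 CPM to 4.05, 3.02, 2.05 and 1.59 CPM (1.02, SE 0.37, adjusted p = 0.0432, edgeR). Here libraries 1 and 3 were the higher cisplatin ones. Snhg10 also holds the gene of miR-3069.

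The carrier of miR-101a, E130102H24Rik (chr4:101346531-101356735, minus strand), fell. It was at 25.7, 23.2, 30.3 and 23.7 CPM in the controls and 7.23, 9.57, 6.95 and 8.80 CPM after cisplatin. The log2 fold change was -1.66 (SE 0.186, adjusted p = 9.51e-05, edgeR), and it was -1.60 within the first set and -1.54 within the second. Another lincRNA that overlaps it, 0610043K17Rik, fell as well (-2.69, SE 0.293). The 3 remaining carriers were not called: Gm27028 (Mir30c-2) at -0.61, C78859 (Mir138-2) at -1.35 and Meg3. With the library set as a covariate C78859 was called down (-1.27, adjusted p = 0.0274, edgeR) and Meg3 up (1.05). Of the 12 microRNA host genes listed, 3 were tested: Mir155hg rose, while Dleu2 (-0.64, SE 0.242) and Mir99ahg (-0.70, SE 0.55) were not called. Of all genes tested 19.2% rose and 15.7% fell. Of the 7 inflammation-linked RNAs listed, 2 were tested. Mir155hg rose, and AW112010, an interferon-induced transcript from which a small protein is translated, was at 7.35, 8.14, 7.81 and 6.13 CPM in the controls and 4.37, 4.45, 4.54 and 4.92 CPM after cisplatin. All 4 cisplatin libraries were below the controls, and its log2 fold change of -0.69 (SE 0.221, adjusted p = 0.0266, edgeR) was under the size required.

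**Figure D2:**
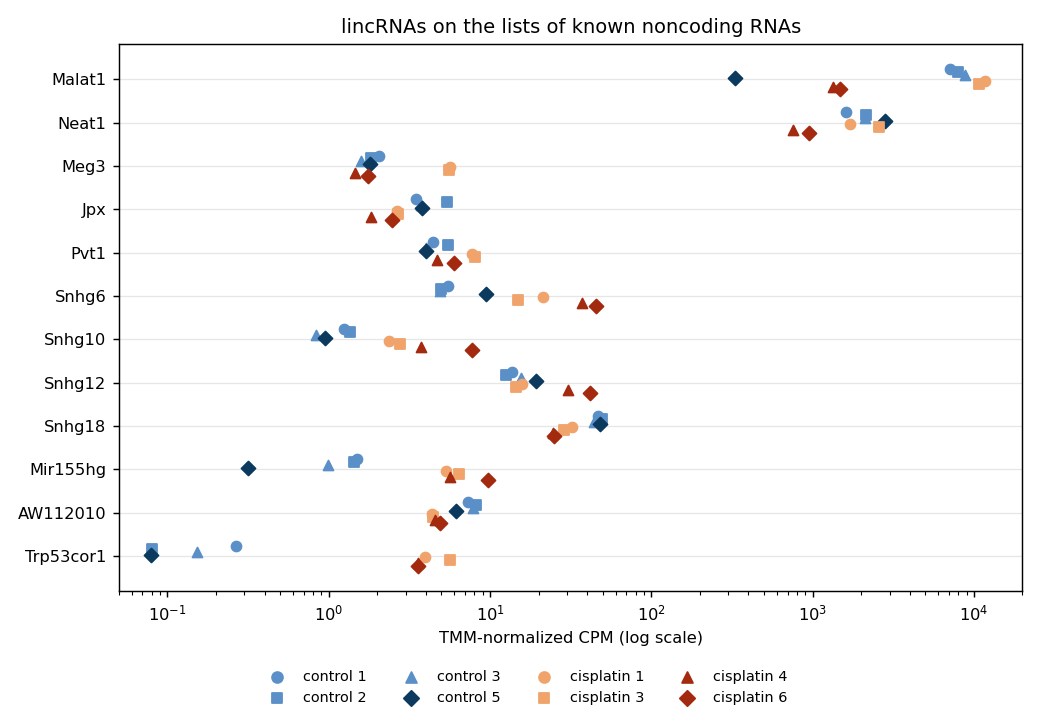
TMM-normalized CPM (horizontal axis, log scale) of the 12 lincRNAs that were on the lists of known noncoding RNAs (rows), with 1 symbol per library (blue for controls, orange and red for cisplatin, darker shades for the second library set). Malat1 and Meg3 split by library within a group, whereas for Snhg6, Mir155hg and Trp53cor1 every cisplatin library lies to the right of every control.

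The largest rises were in lincRNAs that were almost without counts in control kidneys. All 8 are in the set through their cisplatin libraries alone, so low control counts and a rise go with the choice of members. 1700003M07Rik (chr4:129960374-129963657, plus strand, 3259 bases downstream of Spocd1) had 0 counts in all 4 controls and 53, 39, 60 and 51 counts after cisplatin, at least 12.2-fold higher. Gm13056 (chr4:141278439-141279794, plus strand, 20875 bases from Arhgef19) had 2, 0, 0 and 1 counts in the controls and 129, 100, 288 and 325 counts after cisplatin, or 5.87, 5.50, 21.1 and 25.8 CPM, at least 54.8-fold higher. 5031415H12Rik (chr17:70745329-70755582, minus strand, opposite to the coding gene Dlgap1) had 1, 2, 1 and 1 counts and then 101, 99, 130 and 132 counts, at least 28.2-fold higher. These bounds set the control level at 3 counts and cover counting error only. In each of the 3 the adjusted p in edgeR was 0.000186 or smaller, and cisplatin 4 and 6 were above cisplatin 1 and 3.

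Gm26576 (chr10:66920302-66923599, plus strand, 85590 bases from Reep3) had 0, 1, 0 and 2 counts in the controls and 70, 45, 73 and 71 counts after cisplatin, at least 15.7-fold higher. The lincRNA 44 bases from it, 1110002J07Rik, rose as well (2.56, adjusted p = 0.000183, edgeR). Gm1070 (chr6:71293765-71302880, plus strand, opposite to Smyd1) had 0, 0, 1 and 2 counts and then 40, 30, 90 and 62 counts, at least 14.1-fold higher. In 1200007C13Rik (chr2:167827693-167833646, minus strand), the counts went from 4, 3, 0 and 3 to 118, 97, 165 and 228, a log2 fold change of 5.59 (SE 0.699, adjusted p = 0.000171, edgeR). Its nearest coding gene, the phosphatase gene Ptpn1, lies 98411 bases away and was not called (0.68, SE 0.13). Gm32200 (chr1:191436340-191465048, minus strand, 33068 bases from Ppp2r5a) went from 2, 8, 1 and 1 counts to 207, 109, 219 and 192 counts (5.54, SE 0.633, adjusted p = 0.000107, edgeR). With 1 library left out Gm32200 lay between 5.22 and 6.63. The last of the 8, Gm47096 (chr12:44220387-44269118, minus strand, opposite to Pnpla8), varied most among the cisplatin libraries, at 78, 26, 143 and 285 counts against 4, 3, 0 and 3 in the controls (5.48, SE 1.01, adjusted p = 0.00165, edgeR). Its log2 fold change was 4.60 without cisplatin 6 and 3.60 in the first library set alone.

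The 8 largest falls included 7 lincRNAs that are in the set through their controls alone, so that counts in every control and a fall go with the choice of members; the exception was BC049987. Gm33472 (chr14:59043995-59061063, minus strand, 71977 bases from 1700129C05Rik) had 39, 52, 23 and 48 counts in the controls and 1, 0, 0 and 0 counts after cisplatin, at least 13.8-fold lower. Gm29012 (chr1:105116454-105127366, plus strand, 120973 bases from Cdh20) went from 184, 157, 235 and 153 counts to 6, 0, 0 and 2 counts (-6.87, SE 0.638, adjusted p = 3.18e-05, edgeR). With 1 library left out Gm29012 lay between -8.06 and -6.47. BC049987 (chr9:44670453-44672238, minus strand) starts 995 bases from the trehalase gene Treh, which points the other way and was in a row not used here. Its level was 35.3, 34.1, 48.6 and 32.9 CPM in the controls and 0.273, 0.275, 1.46 and 0.952 CPM after cisplatin, a log2 fold change of -5.74 (SE 0.497, adjusted p = 2.23e-05, edgeR). Its residual level was higher in cisplatin 4 and 6 than in 1 and 3, and no cisplatin library came near a control.

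AC079680.2 (chr10:71170834-71182052, minus strand, 11134 bases from Bicc1) went from 47, 45, 79 and 81 counts to 0, 5, 2 and 0 (-5.46, SE 0.705, adjusted p = 0.000207, edgeR). With 1 library left out AC079680.2 lay between -6.63 and -4.96. It overlaps C730027H18Rik on the same strand, which fell from 14.5, 13.6, 17.7 and 27.0 CPM to 0.637, 1.48, 1.68 and 0.872 CPM (-3.96, adjusted p = 3.99e-05, edgeR), so reads of this pair may be shared. Gm31651 (chr3:116200408-116202713, plus strand) went from 56, 78, 96 and 156 counts to 0, 8, 1 and 2. In Gm39033 (chr7:71097047-71123594, plus strand, 225367 bases from Gm10295) the counts were 79, 73, 123 and 61 and then 1, 1, 5 and 5, and in Gm31600 (chr13:37761748-37768147, plus strand, 10253 bases from Rreb1) they were 94, 68, 92 and 83 and then 4, 3, 4 and 2. Gm5524 (chr1:27884046-27902396, plus strand), the most isolated at 873721 bases from Gm597, went from 28, 37, 41 and 43 counts to 5, 1, 1 and 0. Log2 fold changes of these last 4 lay between -5.45 and -4.77, with adjusted p between 5.39e-06 and 0.000226 in edgeR, and the groups did not overlap in any of them. With 1 library left out Gm31651 lay between -6.72 and -4.96 and Gm5524 between -5.79 and -4.47.

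**Figure D3:**
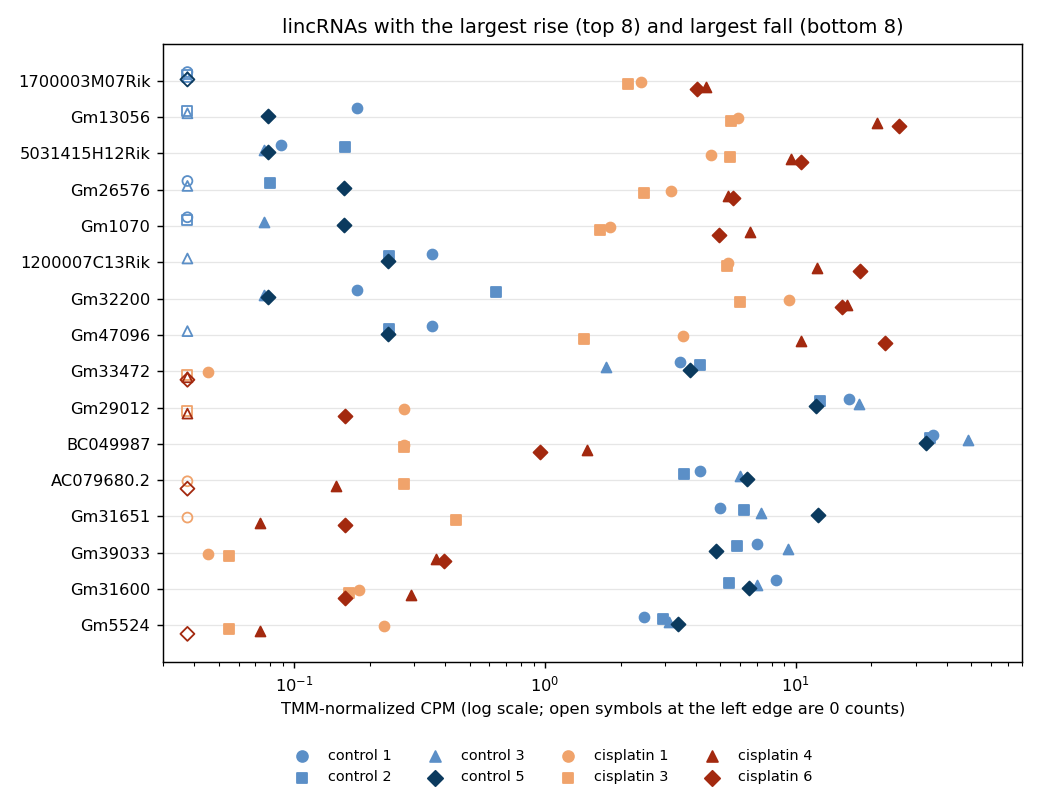
TMM-normalized CPM (horizontal axis, log scale) of the 8 lincRNAs with the largest rise and the 8 with the largest fall (rows), with 1 symbol per library (blue for controls, orange and red for cisplatin, darker shades for the second library set, open symbols for 0 counts). No control symbol lies among the cisplatin symbols in any row, and in the 8 rising rows the darker cisplatin 4 and 6 lie to the right of cisplatin 1 and 3.

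Promoter sequence was read for the lincRNAs found in RefSeq, 119 of 252. The stretches from 250 bases before the RefSeq start to 50 bases after it (GRCm38.p6) are printed for 2 lincRNAs of the largest rises and 2 of the largest falls, with motif matches in capitals. The first 2 are Gm13056 (chr4:141278189-141278488, plus strand) and Gm1070 (chr6:71293515-71293814, plus strand). The others are BC049987 (chr9:44672211-44672510, minus strand) and Gm29012 (chr1:105116203-105116502, plus strand).
Gm13056: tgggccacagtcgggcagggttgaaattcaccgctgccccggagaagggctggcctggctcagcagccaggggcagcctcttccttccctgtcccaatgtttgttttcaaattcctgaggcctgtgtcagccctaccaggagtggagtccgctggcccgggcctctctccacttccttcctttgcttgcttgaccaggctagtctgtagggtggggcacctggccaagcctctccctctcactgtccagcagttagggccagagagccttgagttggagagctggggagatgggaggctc
Gm1070: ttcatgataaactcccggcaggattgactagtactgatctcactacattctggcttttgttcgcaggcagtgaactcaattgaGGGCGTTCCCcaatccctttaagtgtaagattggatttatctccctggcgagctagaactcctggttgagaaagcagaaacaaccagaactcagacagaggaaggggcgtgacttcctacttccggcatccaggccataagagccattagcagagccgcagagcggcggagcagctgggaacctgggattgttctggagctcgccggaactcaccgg
BC049987: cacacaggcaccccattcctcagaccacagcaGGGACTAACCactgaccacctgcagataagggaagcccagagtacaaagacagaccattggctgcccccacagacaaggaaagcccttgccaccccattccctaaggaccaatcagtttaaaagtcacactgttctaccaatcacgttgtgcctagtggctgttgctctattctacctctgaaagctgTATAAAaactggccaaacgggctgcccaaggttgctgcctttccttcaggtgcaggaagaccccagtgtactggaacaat
Gm29012: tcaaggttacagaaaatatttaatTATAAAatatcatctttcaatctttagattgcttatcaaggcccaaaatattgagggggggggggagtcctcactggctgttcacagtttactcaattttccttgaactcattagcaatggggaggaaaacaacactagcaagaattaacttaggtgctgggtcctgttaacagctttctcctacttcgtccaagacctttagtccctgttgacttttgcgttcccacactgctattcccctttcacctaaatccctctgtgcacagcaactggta

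The 5 motifs were searched, each on both strands and with overlaps counted. They were TGANTCA for AP-1, a factor of stress and growth signals; GGGA and CC with any 4 bases between them for NF-kB, a factor of inflammation; CAAAGTCCA for HNF4, a factor of the proximal tubule; TATAAA for the TATA box; and the p53 consensus. Gm13056 held none of them. Gm1070 held the NF-kB letters on the minus strand, from 167 bases before the start. BC049987 held TATAAA 30 bases before the RefSeq start and the NF-kB letters 218 bases before it; this start lies 22 bases upstream of the one in the count table, from which the distance to Treh was taken. Gm29012 held TATAAA 226 bases before the RefSeq start, which is 1 base from that in the count table. Over the 119 lincRNA promoters, the NF-kB letters were found in 26.1%, against 22.9% of all 27025 promoters, AP-1 in 7.56% against 8.97%, and TATAAA in 11.8% against 15.7%. By direction, the NF-kB letters were in 21.4% of 28 promoters of lincRNAs that rose and 25% of 24 that fell, and AP-1 in 7.14% and 12.5%. No lincRNA promoter held the HNF4 letters (0.555% of all) or the p53 consensus (0.0111% of all). The differences between these shares were not tested, and a match does not show binding.

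The abundant lincRNAs not yet described changed by less than those with the largest rises and falls. The fourth most abundant, 1700020I14Rik (chr2:119594297-119607502, plus strand), was at 202, 202, 204 and 154 CPM in the controls and 203, 167, 147 and 158 CPM after cisplatin, with a log2 fold change of -0.17 (SE 0.16, adjusted p = 0.393, edgeR). Its neighbour Oip5, a centromere gene 2010 bases away, rose (1.28, SE 0.357, adjusted p = 0.0144, edgeR). 5031425E22Rik (chr5:23382308-23434269, minus strand), which starts 172 bases from the chromatin gene Kmt2e, was at 35.95, 28.6, 40.6 and 51.0 CPM and then 49.9, 41.6, 81.5 and 108 CPM. Cisplatin 1 and 3 were within the control range, and the log2 fold change of 0.85 (SE 0.309, adjusted p = 0.0442, edgeR) was not called. Gm21781 (chr10:4391587-4396424, plus strand) rose from 23.2, 13.1, 25.6 and 20.4 CPM to 48.9, 42.7, 76.1 and 85.4 CPM (1.62, SE 0.283, adjusted p = 0.00121, edgeR), while Zbtb2, 3479 bases away, was not called (0.16, SE 0.157). With the replicate block Gm21781 was at 0.90 (adjusted p = 0.00062) and no longer called.

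Fam120aos (chr13:48968287-48972031, plus strand), head to head with Fam120a at 270 bases, was at 48.2, 51.5, 58.0 and 37.0 CPM and then 20.5, 20.5, 26.9 and 29.0 CPM. Its log2 fold change of -1.01 (SE 0.195, adjusted p = 0.00215, edgeR) just passed the size required and did not when cisplatin 1 or 3 or control 2 or 3 was left out, at -0.94, -0.95, -0.99 and -0.93. The call of Fam120aos was kept in 11 of 21 alternatives. Among the others were upper quartile scaling (-0.95), total library size (-0.46) and the fit without cisplatin 1 and 3 (-0.79). Fam120a, which encodes an RNA-binding protein, was not called (-0.37, SE 0.234). AI838599 (chr4:3242055-3258092, plus strand, 56697 bases from Vmn1r3) fell from 41.4, 44.7, 61.5 and 42.8 CPM to 30.8, 25.2, 12.3 and 8.88 CPM (-1.30, SE 0.366, adjusted p = 0.0151, edgeR), and the fall was deeper in cisplatin 4 and 6. In the first library set alone it was -0.87, with the replicate block -0.86 and under total library size -0.70, and it was no longer called in any of these. Gm10076 (chr14:105681828-105682211, plus strand, 209736 bases from Spry2), a single exon of 384 bases, scattered within both groups, at 37.4, 7.90, 74.2 and 26.4 CPM and 40.6, 5.11, 18.4 and 19.5 CPM, and was not called (-0.80, SE 0.675, adjusted p = 0.352, edgeR). With the replicate block it was called down (-1.73, adjusted p = 0.038, edgeR), and with 1 library left out it ranged from -1.34 to -0.20 and was not called. Spry2, an inhibitor of receptor tyrosine kinase signalling, rose (1.12, SE 0.214, adjusted p = 0.00199, edgeR).

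How far a lincRNA depended on the library set was read from the mean log2(CPM + 0.5) of each set. In all 74 lincRNAs that rose and all 47 that fell, the cisplatin difference had the same sign within the first and the second set, which the call itself nearly fixes: the same held for 99.7% of all genes that rose and 99.8% of those that fell. Of the 131 lincRNAs not called, it held for 86. The set difference was larger than the treatment difference in 63 of 252 (25%), none of them called, and in 33.8% of all genes tested. A set difference of over 2-fold in the same direction in both groups was found for 7 lincRNAs, 4 lower in the second set (1.59%, against 1.96% of all genes) and 3 higher (1.19%, against 3.01%). Malat1 was 1 of the 4.

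After Malat1, the largest set differences were in 4 lincRNAs of lower abundance. Gm27216 (chr9:83240481-83254540, minus strand) was even in the controls, at 30.02, 26.01, 28.7 and 30.1 CPM, and was at 0.910 and 0.385 CPM in cisplatin 1 and 3 against 12.01 and 8.96 CPM in cisplatin 4 and 6. The log2 fold change of -2.39 (SE 0.822) had an adjusted p of 0.0351 in edgeR, which rose to between 0.0572 and 0.0655 when cisplatin 1 or any 1 control was left out. Gm27216 was at -5.45 in the first set alone, -5.47 with the replicate block and -3.78 with the library set as a covariate. Without cisplatin 1 and 3 it was at -1.44, and under total library size it was at -1.89 and not called. Gm44785 (chr8:10687948-10691706, plus strand) was at 6.73, 4.71, 7.05 and 7.55 CPM in the controls, at 1.27 and 0.770 CPM in cisplatin 1 and 3 and at 11.3 and 10.8 CPM in cisplatin 4 and 6. It was thus below the controls in one pair of cisplatin libraries and above them in the other, with a log2 fold change of -0.13 (SE 0.742, adjusted p = 0.903, edgeR). It was called down in the first set alone (-2.63, adjusted p = 0.000416, edgeR) and with the replicate block (-2.75, adjusted p = 2.08e-05), and without cisplatin 1 and 3 it was at 0.77 (adjusted p = 0.0310). 2610037D02Rik (chr15:96134819-96284495, minus strand) was at 2.66, 2.31, 3.03 and 0.236 CPM and then 5.50, 3.02, 2.12 and 1.90 CPM. Gm26772 (chr14:25548390-25554369, minus strand) was at 1.86, 1.75, 2.50 and 0.315 CPM and then 4.41, 2.91, 1.46 and 0.872 CPM. In both of these control 5 was the lowest library, and neither was called (0.62 and 0.61, adjusted p = 0.427 and 0.443, edgeR). With the library set as a covariate both were called up, 2610037D02Rik at 1.14 (adjusted p = 0.0376, edgeR) and Gm26772 at 1.05 (adjusted p = 0.0202), and without cisplatin 1 and 3 they were at -0.0281 and -0.45.

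Within the cisplatin group the size of the rise differed by library. Of the 74 lincRNAs that rose, 55 (74.3%) were higher in both cisplatin 4 and 6 than in both cisplatin 1 and 3, and 10 (13.5%) were lower. Among all 1754 genes that rose, these shares were 53.1% and 20.6%. The choice of members bears on this, since 20 counts stand for a higher CPM in cisplatin 4 and 6 than in 1 and 3: of the 42 lincRNAs in the set through cisplatin libraries alone 33 were higher in 4 and 6. Of the other 32 that rose 22 were (68.8%), against 51.8% of the 1128 genes that rose and met the rule in the same way. Of the 47 lincRNAs that fell, 13 were higher and 13 lower in cisplatin 4 and 6. The difference between these shares was not tested, and the lincRNAs of 1 library are not independent of one another.

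**Figure D4:**
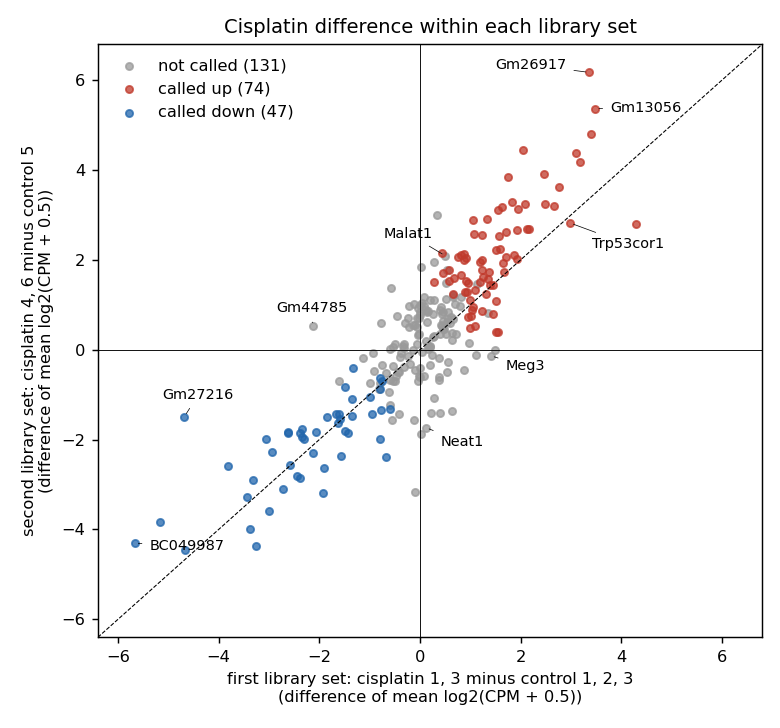
Difference between cisplatin and control in mean log2(CPM + 0.5) within the first library set (horizontal axis) and within the second (vertical axis), with 1 point per lincRNA (red for the 74 that rose, blue for the 47 that fell, grey for the 131 not called) and the line of equal difference dashed. All red points are in the upper right and all blue points in the lower left, while Malat1, Neat1, Meg3 and Gm44785 differ between the sets.

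Position relative to protein-coding genes was taken from the coordinates in the count table. The annotation of the lincRNAs was compared with GENCODE M21. Of the 252 lincRNAs, 251 matched by identifier, 236 with the same coordinates, and 237 were annotated there as lincRNA. The others include 7 annotated as antisense, among them 5031415H12Rik. The set spread over 20 chromosomes, with 2 genes on X. A coding gene was overlapped by 45, or lay within 5 kb or overlapped for 141, and the median distance was 2721.5 bases. In 61 the start was head to head with that of a coding gene within 1 kb. By arrangement, 27 of 87 divergent lincRNAs rose and 18 fell (51.7% called), 9 of 33 convergent rose and 8 fell (51.5%), and of 40 that overlapped a coding gene on the opposite strand 8 rose and 4 fell (30%). Upstream on the same strand 13 of 41 rose and 11 fell (58.5%), and downstream on the same strand 15 of 46 rose and 6 fell (45.7%). Of all genes tested 34.9% were called, and these lincRNA counts include the 59 lincRNAs that reached the threshold through 1 group alone. Without those 59, the shares called were 40% of 70 divergent, 27.3% of 22 convergent, 15.2% of 33 on the opposite strand, 41.4% of 29 upstream and 28.6% of 35 downstream lincRNAs, where 29.7% of all genes under the same rule were called. The strand setting of the counts is not given in the sources used here, so lincRNA and coding reads cannot be told apart where genes overlap. The median distance to a coding gene was 11048 bases for the lincRNAs that fell, 3287.5 for those that rose and 1446 for those not called. Of the 11 that lay over 100 kb away 6 fell, where 15.7% of all genes tested fell. Of these 6, 5 had reached the threshold through controls alone, so their fall goes with the choice of members.

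For 96 lincRNAs the nearest coding gene was itself tested, giving 92 different genes. The log2 fold changes had the same sign in 65 of 96 pairs, with a Pearson r of 0.494 and a Spearman rho of 0.401 across pairs, which come from the same 8 libraries. The log2 fold change was above 0 in 61 of the 96 lincRNAs, in 46 of the 96 pairs for the neighbour, and in 52% of all coding genes tested. In the 54 pairs that overlapped or lay within 5 kb r was 0.504, and in the 42 farther apart it was 0.5. Of 27 pairs in which the lincRNA rose, the neighbour rose in 6, fell in 2 and was not called in 19. Of 16 in which the lincRNA fell, the neighbour fell in 7, rose in 2 and was not called in 7. Of all coding genes tested 17.9% rose and 16.1% fell, and the neighbour rose beside 22.2% of the lincRNAs that rose and fell beside 43.8% of those that fell. The 7 neighbours that fell are 6 different genes, since Ak4 is counted for 2 overlapping lincRNAs. Without the lincRNAs that are in the set through 1 group alone, 79 pairs were left, of which 51 had the same sign, with r at 0.366 and rho at 0.309. The neighbour then rose in 4 of 13 pairs with a lincRNA that rose, and fell in 4 of 13 (3 different genes) with one that fell. Of the 53 neighbours of lincRNAs not called, 4 rose and 6 fell.

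Pairs that rose together included Trp53cor1 and Cdkn1a, Gm9530 (2.48) and the immediate early gene Ier5 (3.67) at 13095 bases, and 9230111E07Rik (1.12) and Cebpb (2.45), a transcription factor of the acute phase, at 91635 bases. With the library set as a covariate 9230111E07Rik was not called (0.82, adjusted p = 0.0616, edgeR). Gm47795 (1.18) and Gclc (1.09), the catalytic subunit of glutathione synthesis, rose together at 21267 bases, as did 0610033M10Rik (1.10) and Nfe2l3 (2.10), and AC125351.1 (1.27) and Map3k9 (1.22). Of the pairs that fell together, Gm26697 (-2.71) overlaps the fatty acid transport gene Slc27a2 (-3.47) on the opposite strand, Gm39078 (-2.45) ends 150 bases from Acsm2 (-4.29), and E130102H24Rik and 0610043K17Rik share the neighbour Ak4 (-3.95), a mitochondrial adenylate kinase. The remaining 3 were Gm30784 (-4.54) with the organic anion transporter gene Slco1a4 (-2.90), C330002G04Rik (-2.80) with the cation channel gene Trpm3 (-1.90), and AC121960.1 (-3.69) with Olfm4 (-3.07).

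In 4 pairs the directions were opposite, and 3 of them are described. Gm45605 went from 2.21, 1.75, 2.20 and 3.22 CPM to 9.55, 8.80, 13.8 and 15.3 CPM (2.33, SE 0.300, adjusted p = 0.000205, edgeR), while Slc47a1, the proton-coupled exporter of organic cations 29673 bases away, fell (-3.06, adjusted p = 9.58e-05). Gm33195 rose (1.55) and Cd83, a surface protein of activated immune cells, fell (-1.34). Gm26641 fell (-1.56) and the junction gene F11r, 217 bases away, rose (1.03).

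**Figure D5:**
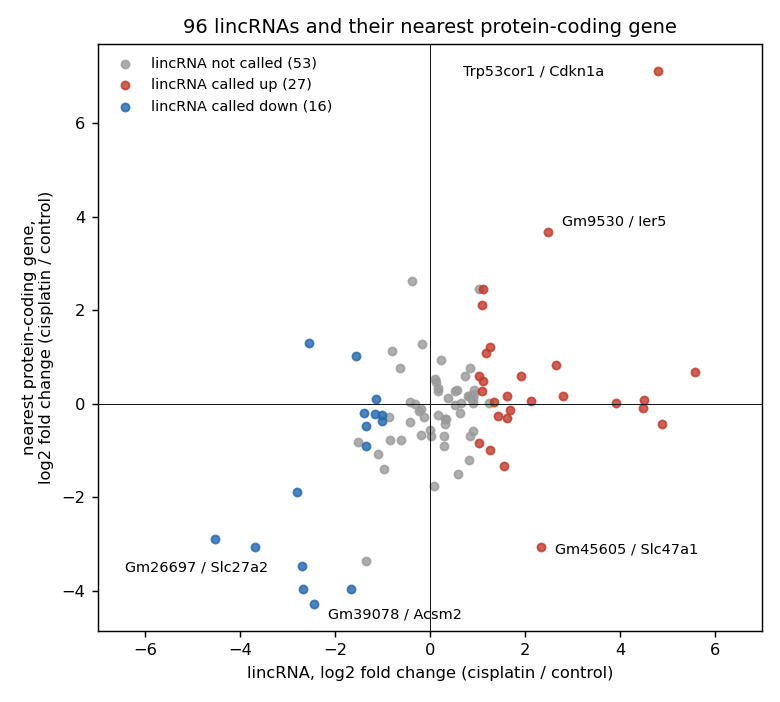
Log2 fold change (cisplatin over control) of 96 lincRNAs (horizontal axis) and of the nearest protein-coding gene (vertical axis), with 1 point per pair, coloured by whether the lincRNA rose (27), fell (16) or was not called (53). The pairs farthest from the centre lie in the upper right (Trp53cor1 and Cdkn1a) and the lower left, and Gm45605 and Slc47a1 lie in the lower right.

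LincRNAs next to one another were also read as pairs. Of 19 pairs of neighbouring lincRNAs within 50 kb, 13 had the same sign, 5 were called in the same direction and 0 in opposite directions. Over all 252, 157 had a log2 fold change above 0, 29.4% rose and 18.7% fell, and 4 of the 5 pairs hold a lincRNA that is in the set through 1 group alone. The 5 were 1110002J07Rik with Gm26576, 2010015M23Rik (2.03) with Gm15892 (4.50), and 9230111E07Rik with 1200007C13Rik, which rose, and C730027H18Rik with AC079680.2, and E130102H24Rik with 0610043K17Rik, which fell and whose genes overlap. Next to 5330413D20Rik, which rose (5.30), Gm44785 was not called.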

How the data were processed

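Libraries came from kidneys of 4 control and 4 cisplatin-treated mice. The authors trimmed reads with fastp, used HISAT2 with GRCm38, and deposited gene-level raw counts; the counting tool, annotation release and strand setting are not given in the sources used here. The library kit named in the labels differs from that in the paper's methods. Gene lengths, an "other" value deposited by the authors, were used only for levels per kilobase. Of 53715 rows, 35880 held 8 values and were used; 17835 held 10 values under 8 library names and were not, so 2 unnamed columns of values were left out. The totals therefore cover part of each library.

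Cisplatin was compared with control by edgeR 4.0.16 in R 4.3.3 (default expression filter, TMM, quasi-likelihood test, Benjamini-Hochberg adjustment over 9141 genes, no covariates). CPM are TMM-normalized. A standard error is the log2 fold change divided by the square root of F. If no library of one group exceeded 3 counts, the fold is given as a lower bound. That group's level is then set to what 3 counts are worth at most there, 0.266 CPM in controls and 0.238 CPM after cisplatin. The floor, 0.180 to 0.274 CPM by library totals, covers counting error only. The paper's methods use DESeq2, run here (1.42.0) as an alternative; the others were other scalings and filters, glmTreat at a log2 fold change of 1, the library set as covariate or the first set alone, a replicate block, and libraries left out. The steps were tested on simulated data.

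Named are the 10 most abundant lincRNAs; the 8 per direction with the largest change among called ones of 1 CPM or more on average whose groups did not overlap; the 5 with the largest same-sign library-set difference; 2 on either side of the threshold; members of 7 lists of known noncoding RNAs; and the nearest coding gene of each of the first 2 kinds. A few neighbouring genes are not reported here. Small-RNA carriers, pairs of neighbours and C730027H18Rik were chosen after their values were seen. The members and lists were chosen with earlier results of these data known.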

Additional observations from a re-analysis of the deposited data

Results flagged for a closer look

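In groups of 4, a single library was far from the other 3 in 5 groups of values. The named lincRNAs gave 78 such groups, but those of very low mean level were passed over. The number looked at was thus smaller and is not given, so the 5 cannot be set against the 1 in 20 that chance alone gives. The levels of 3 lincRNAs stood apart upward in a control that was not control 5. AI838599 was at 61.5 CPM in control 3, against 41.4 to 44.7 CPM in the other controls. BC049987 was at 48.6 CPM in control 3, against 32.9 to 35.3 CPM. Jpx was at 5.42 CPM in control 2, against 3.45 to 3.77 CPM. The other 2 were in control 5, the control of the second library set. There 1700020I14Rik was at 154.2 CPM, against 202 to 204 CPM in the other controls, and Snhg6 was at 9.44 CPM, against 4.93 to 5.49 CPM.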

How the results depend on the processing

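The count of 74 lincRNAs that rose moved to 31 (with 15 that fell) when genes needed at least 10 counts in every library, which left 152 lincRNAs to test, to 43 with glmTreat at a log2 fold change of 1, and to 117 under total library size, where 77% of lincRNA calls were upward against 61.2% with TMM (79.8% and 55% over all genes). The other scalings, filters and tools kept both counts within 1.5 times, with 76 and 51 by DESeq2, and with 1 library left out the counts were 65 to 75 up and 42 to 50 down. With members chosen by a mean of at least 20 counts there were 256, of which 243 were shared, with 80 up and 46 down. An alternative chosen after seeing the data kept the lincRNAs that GENCODE M21 lists as such and that overlap no coding gene on the same strand, and gave 68 and 45. None of the lincRNAs called in the main comparison was called in the opposite direction under any alternative. With the library set as a covariate 80 rose and 50 fell (71 and 46 of the calls kept), in the first set alone 67 and 49 (61 and 42 kept), and without cisplatin 1 and 3, which was 82 and 55, 66 and 45 were kept.

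Numbers 1 and 3 are used for replicates of both groups, but nothing says that they mark a pair. Same-numbered samples correlated in their deviations at 0.249 and 0.279, within the 0.148 to 0.355 of all first-set pairs. The fit with the replicate block gave 63 up and 50 down (58 and 42 kept). Its treatment difference comes from numbers 1 and 3 alone, so it is no check on the second set.

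Among named genes, Malat1 changed sign, to -0.0018 in DESeq2 and with its size factors in edgeR, to -2.11 without cisplatin 1 and 3, and over -0.45 to 0.40 with 1 library left out. Neat1 was 0.0808 in the first set alone, 0.18 with the replicate block and 0.0628 under total library size. Gm44785 was called down in the first set alone (-2.63) and with the replicate block (-2.75), and was 0.38 under total library size, 0.77 without cisplatin 1 and 3, and -0.65 to 0.25 with 1 library left out. Meg3 was called up with the library set as a covariate (1.05), in the first set alone (1.57), with the replicate block (1.63), under total library size (1.60) and without cisplatin 4 (1.26). With the library set as a covariate 13 lincRNAs gained a call, among them Malat1 (1.03), 2610037D02Rik (1.14) and Gm26772 (1.05), and 4 lost it. With the replicate block Gm10076 was called down (-1.73), and Gm21781 (0.90) and AI838599 (-0.86) lost their calls. Snhg12 (1.247) and 5031425E22Rik (1.29) were called up without cisplatin 1 and 3, and 5031425E22Rik also without cisplatin 3 alone (1.03) and under total library size (1.40). Under total library size 1700020I14Rik was 0.40. Without cisplatin 1 and 3, 2610037D02Rik was -0.0281, Gm26772 -0.45 and Meg3 -0.17. The cause was not tested. Depth limits the lincRNAs of few counts, for which 3 counts are the smallest level read.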
